A study of Homo sapiens with 2 samples.

Results

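Histone genes were compared between 2 libraries of T47D cells, an established line from a luminal breast cancer. They were chosen by name as rows of the deposited transcript tables: 72 genes of the HIST1 to HIST4 clusters and 13 variant histone genes (H1F, H2AFJ, H2AFV, H2AFX, H2AFY, H2AFZ and H3F3 names), 85 of 25240 genes in all. One library came from cells with a non-targeting short hairpin (shNT, RON proficient) and the other from cells with a hairpin that targets RON (shRON). RON is a receptor tyrosine kinase and its gene is MST1R. All cells were transduced and selected with 5 ug/mL puromycin, kept in 1 ug/mL, and grown in high-glucose DMEM with 10% serum. Each group is 1 library of 1 culture, so no test between conditions was possible and every difference describes these libraries. MST1R, the targeted gene, was at 12.1 FPKM in shNT against 9.10 in shRON (log2 ratio -0.38). FPKM counts fragments per length of transcript and per depth of the library. Levels of different genes can be compared on it only as far as their RNAs were captured alike.

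Histones are the proteins around which DNA is wound, with H2A, H2B, H3 and H4 in the core and H1 as the linker. Replication-dependent histone genes lie in clusters, lack introns and are transcribed mainly in S phase, when new DNA has to be packaged. Their mRNAs typically end in a stem-loop bound by the protein SLBP in place of a poly(A) tail. Variant histones such as H3.3 and H2A.Z are made throughout the cell cycle from ordinary polyadenylated mRNAs. Some cluster genes also give longer, polyadenylated transcripts, and libraries made from poly(A) RNA hold mostly such forms. The sources used here do not state whether these libraries were made from poly(A) RNA. If they were, FPKM of cluster and variant genes would reflect capture as well as level.

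The 3′ ends of the members are shown because they separate the cluster genes from the variants and relate to what such libraries capture. The stem-loop was searched on the gene's own strand in the hg19 sequence as GG, any 3 bases, TTTT, any base, A, any 3 bases and CC, with the first 6 bases pairing perfectly with the last 6. It lay within the last 100 bases of 60 of 72 listed cluster transcripts whose strand was known. It was found at that place in 0 of 21 variant transcripts and 0 of 28594 other coding transcripts. A poly(A) signal (AATAAA or ATTAAA) lay in the last 50 bases of 7 of the cluster transcripts, 10 of the variant ones and 76.9% of the others. Capitals mark the 16 bases of the stem-loop, with 5 flanking bases on either side:
HIST1H2BK (chr6:27114145-27114160, minus strand): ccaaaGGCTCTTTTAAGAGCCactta
HIST1H2BD (chr6:26158815-26158830, plus strand): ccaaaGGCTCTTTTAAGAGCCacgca
HIST1H1C (chr6:26055972-26055987, minus strand): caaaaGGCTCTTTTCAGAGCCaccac
HIST1H2AC (chr6:26124897-26124912, plus strand): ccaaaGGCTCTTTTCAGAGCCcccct
HIST1H4H (chr6:26285359-26285374, minus strand): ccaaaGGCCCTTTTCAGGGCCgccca
H2AFX (chr11:118965608-118965623, minus strand): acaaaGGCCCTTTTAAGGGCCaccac

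The listed transcripts of HIST1H1C, HIST1H2AC and HIST1H4H end 4 to 6 bases past this element. The listed transcript of HIST1H2BK is spliced and ends 8073 bases of genome further on, and the longer one of HIST1H2BD ends 12747 bases further on. H2AFX, whose mRNA is known in both forms, has a stem-loop 1024 bases before its listed end. The 60 stem-loops near a cluster transcript's end had only 5 forms of 16 bases, and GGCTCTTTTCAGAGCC was the commonest with 36 transcripts. The form of HIST1H4H, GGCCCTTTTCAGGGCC, was found in 10.

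Most cluster genes were barely detected. Of the 72, 24 were listed at 0 in both libraries and 39 stayed under 1 FPKM in both. The remaining 33 reached 1 FPKM in at least 1 library and are called measured. By contrast, 10 of the 13 variant genes were measured, each in both libraries. The other 3, the germline linker genes H1FNT and H1FOO and the H3.3-like gene H3F3C, were listed at 0 in both. Summed over its members, the variant class stood at 1316 FPKM in shNT against 1221 in shRON, above the 718 and 548 FPKM of the cluster class. A few genes carried the cluster class: HIST1H2BK alone held 34.2% of its sum in shNT and 24.3% in shRON. The 5 most abundant cluster genes, the same 5 in both libraries, held 74.1% and 67.8%.

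The cluster transcripts were also grouped by their listed 3′ end. The 4 transcripts that end at a poly(A) signal without a stem-loop (HIST1H2BK, HIST2H2BE, the longer one of HIST1H2BD and one of HIST2H2BF) summed to 329 FPKM in shNT against 202.5 in shRON. HIST1H2BK made up most of this sum, and the HIST2H2BF transcript was at only 2.15 and 2.24 FPKM. A longer-spanning transcript of HIST2H2BF (0.311 and 0.670 FPKM) and that of HIST2H2BA (listed at 0 in both) also end far past a stem-loop, with neither element near the end. The 57 that end at a stem-loop alone summed to 357 and 304 FPKM, and 33 of them stayed under 1 FPKM in both libraries. Their median was 0.240 FPKM in shNT against 0.301 in shRON. The 3 with both elements (the short one of HIST1H2BD, HIST1H2BH and HIST1H4J) summed to 9.04 FPKM in shNT against 20.2 in shRON. HIST1H4J was listed at 0 in both, so this sum is that of the other genes' transcripts. The 8 with neither summed to 9.64 and 10.5 FPKM. Fragments are assigned to listed transcripts, so a value for a short listed form does not show which 3′ end the RNA had.

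**Figure D1:**
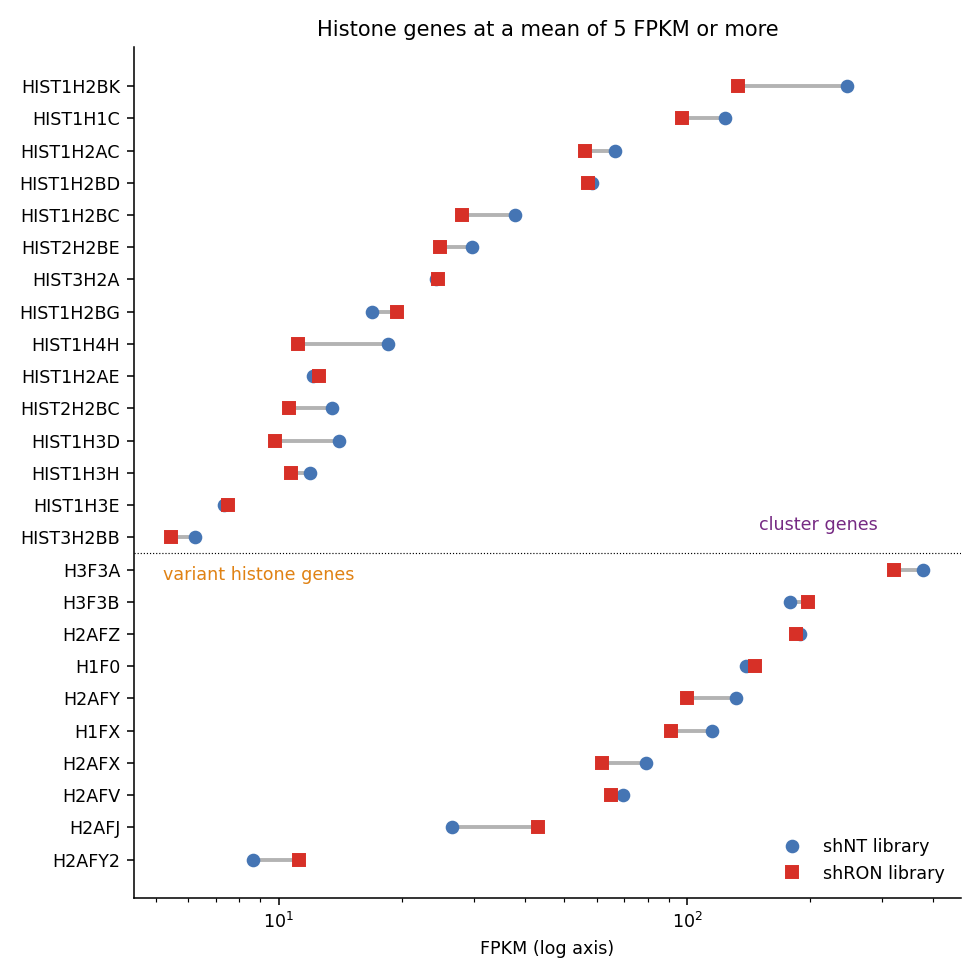
FPKM on a log axis of the 25 histone genes with a mean of 5 FPKM or more, 1 point per library (circles shNT, squares shRON), cluster genes above the dotted line and variant genes below it. HIST1H2BK is lower in shRON by the widest gap of the cluster genes, and H2AFJ is higher in shRON.

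Differences between the libraries are given as the log2 ratio of FPKM + 1, shRON over shNT. For genes of low level the added 1 pulls this value toward 0. Over all 12483 measured genes its median was 0.04. Of the 33 measured cluster genes, 5 were lower and 4 higher by 1.5-fold or more. Among all measured genes 8.84% were lower and 9.94% higher by that size, beside 15.2% and 12.1% of the cluster genes. The cluster median was -0.03, with 17 genes below 0 and 16 above. By 2-fold or more, 1 cluster gene was lower and 4 were higher, beside 2.17% and 3.32% of all measured genes. Of the 4 genes higher by 1.5-fold, 3 reached 1 FPKM in shRON only, and of the 5 lower ones, 2 (HIST1H3J and HIST1H4D) reached it in shNT only. These 5 genes passed the filter through the library where they were high. Of the 10 measured variant genes, 0 were lower and 1 was higher by 1.5-fold, with a median of -0.06.

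HIST1H2BK, which encodes an H2B, had the largest difference of all histone genes in FPKM. It stood at 246 FPKM in shNT against 133 in shRON, a log2 ratio of -0.88, and only 3.06% of measured genes had a lower ratio. Its FPKM ratio was 0.541 (approximate interval for counting error 0.509 to 0.574), from an estimated 3129 and 1648 fragments. This gene lies on the minus strand at chr6:27106072-27114637 (hg19), and its listed transcript of 839 bases is spliced. HIST1H4I lies within its span and was listed at 0 in both libraries. HIST1H2BK accounted for 66.4% of the difference in summed FPKM of the cluster class. Without it the class stood at 472 FPKM in shNT against 415 in shRON, a ratio of 0.879 in place of 0.763. Over all genes the summed FPKM had a ratio of 0.959.

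No other H2B gene with a mean of 5 FPKM or more was lower by 1.5-fold, although 6 of these 7 H2B genes, HIST1H2BK included, were below 0. HIST1H2BD was at 58.5 FPKM in shNT against 57.3 in shRON (log2 ratio -0.03), and HIST1H2BG at 16.9 and 19.5 (0.20). HIST1H2BC stood at 37.8 and 28.0 FPKM (-0.42, ratio of FPKM 0.741, approximate interval 0.602 to 0.909), HIST2H2BE at 29.7 and 24.8 (-0.25, interval 0.761 to 0.919), and HIST3H2BB at 6.23 and 5.45 (-0.16). The pseudogene HIST2H2BC was at 13.5 and 10.6 FPKM (-0.32). The 5 measured H2B genes of lower level were all above 0. HIST1H2BH was higher, from 2.08 to 5.35 FPKM (1.04), on an estimated 14.0 and 31.7 fragments. HIST1H2BO stood at 0.240 FPKM in shNT against 1.73 in shRON, from only about 1.78 and 11.7 fragments.

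HIST1H2BD has 2 listed transcripts, and their balance differed between the libraries although the gene's sum did not. The short transcript of 523 bases was at 6.96 FPKM in shNT against 14.9 in shRON. It ends 41 bases past the stem-loop and also has a poly(A) signal in its last 50 bases. The spliced transcript of 814 bases was at 51.5 and 42.4 FPKM. The short form thus made up 11.9% of the gene's FPKM in shNT against 25.9% in shRON, on an estimated 54.6 and 116 fragments. Both forms start at the same base, so their separation rests on the authors' estimate for overlapping transcripts, whose error is not among the values used. The shares also differed in HIST2H2BF, a gene under 5 FPKM that is named after its values were seen. Its 999-base transcript held 12.6% in shNT and 23.0% in shRON, on only about 4.53 and 9.08 fragments.

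**Figure D2:**
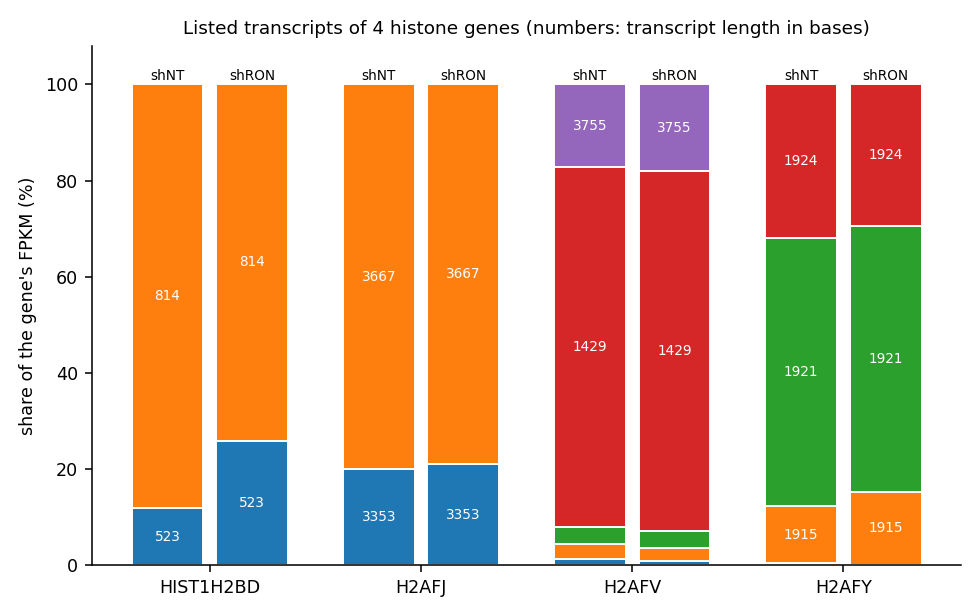
Share of each gene's FPKM (%) held by its listed transcripts in each library, for the 4 genes with several listed transcripts and a mean of 5 FPKM or more, with transcript lengths in bases in the larger segments. The 523-base transcript of HIST1H2BD holds 11.9% in shNT and 25.9% in shRON, while the shares of H2AFJ, H2AFV and H2AFY differ by less than 4 percentage points.

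Only 4 of 15 H4 genes were measured, and 3 of them were lower by 1.5-fold, beside 8.84% of all measured genes. HIST1H4H was at 18.5 FPKM in shNT against 11.1 in shRON, a log2 ratio of -0.68. Its ratio of FPKM was 0.602 (approximate interval 0.422 to 0.851), from an estimated 99.4 and 51.8 fragments. HIST1H4E (2.38 to 1.08 FPKM) and HIST1H4D (1.104 to 0.392) were also lower by 1.5-fold, but on about 14.2 and 5.35 fragments in shNT. HIST4H4, on chromosome 12, was at 0.811 and 1.15 FPKM. HIST1H4D reached 1 FPKM in shNT only and HIST4H4 in shRON only, so the filter chose both in part for their direction. The other 11 H4 genes stayed under 1 FPKM in both libraries, among them HIST1H4C (listed at 0 in shNT, 0.716 in shRON) and HIST1H4L (listed at 0, 0.359). The intervals of HIST1H4E (0.128 to 1.34) and HIST1H4D (0.0338 to 2.17) include a ratio of 1.

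No cluster gene of H3, H2A or the linker H1 with a mean of 5 FPKM or more differed by 1.5-fold. HIST1H3D was at 14.0 FPKM in shNT against 9.79 in shRON (-0.48, interval of the FPKM ratio 0.537 to 0.905), HIST1H3H at 11.9 and 10.7 (-0.15), and HIST1H3E at 7.32 and 7.498 (0.03). HIST1H2AC stood at 66.4 and 56.1 FPKM (-0.24), HIST3H2A at 24.2 and 24.5 (0.02), and HIST1H2AE at 12.1 and 12.5 (0.04). HIST1H1C, which encodes the linker histone H1.2, was at 124 and 97.1 FPKM (-0.35), with a ratio of 0.786 (approximate interval 0.723 to 0.854). It was the only cluster linker gene that passed 5 FPKM. HIST1H2AD, at 0.703 FPKM in shNT against 2.65 in shRON, shares 453 bases of its span with HIST1H3D, so how fragments were divided between them is uncertain. The lowest and highest log2 ratios of the class, HIST1H3J (1.32 FPKM in shNT, listed at 0 in shRON) and HIST1H3F (listed at 0 in shNT, 1.35 in shRON), rest on under 10 estimated fragments.

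The cluster genes were also read by level, with no test between levels. Of the 15 with a mean of 5 FPKM or more, 11 were below 0 and 4 above, with a median of -0.24, beside 0.02 over all 8409 genes at that level. Of these 15, 2 were lower by 1.5-fold, HIST1H2BK and HIST1H4H, and 0 higher, beside 8.47% lower and 8.11% higher of all genes at that level. Of the 18 measured cluster genes under that mean, 6 were below 0 and 12 above. The filter chose 9 of these for their direction in part, 4 that reached 1 FPKM in shNT only and 5 in shRON only. For a cluster gene, 1 FPKM corresponded to a median of 6.76 estimated fragments, so these rare genes are poorly determined.

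**Figure D3:**
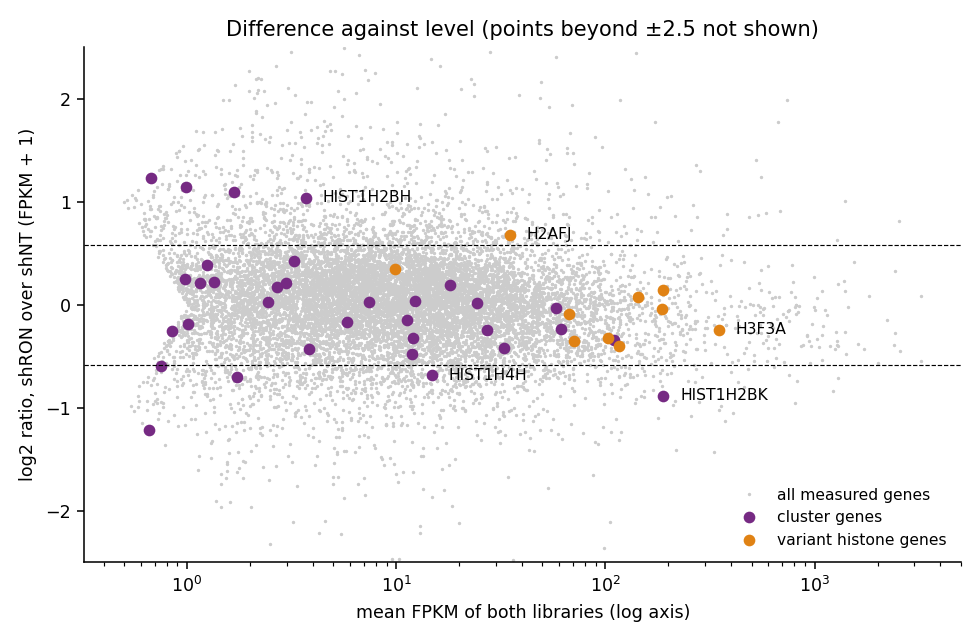
Log2 ratio of FPKM + 1 (shRON over shNT) against mean FPKM on a log axis, 1 point per gene, with all 12483 measured genes in grey and dashed lines at 1.5-fold. Cluster genes of higher level lie mostly below 0, and those beyond 1.5-fold on the upper side are all under 5 FPKM in the mean.

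Lower and higher genes were interspersed along the HIST1 cluster. Of its 55 genes on chromosome 6, 25 were measured, 13 below 0 and 12 above, and genes higher and lower by 1.5-fold stood beside each other. Measured genes other than histones within 5 Mb were mostly higher in shRON, with medians between 0.27 and 0.32 around the HIST1 genes measured here. Relative to that surrounding, HIST1H2BK was at -1.20, HIST1H4H at -1.004 and HIST1H1C at -0.67. The 5 measured HIST2 genes on chromosome 1 had a median of -0.25, and the measured HIST3 genes, HIST3H2A and HIST3H2BB, were at 0.02 and -0.16. The part of neighbouring genes in these differences was not tested.

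**Figure D4:**
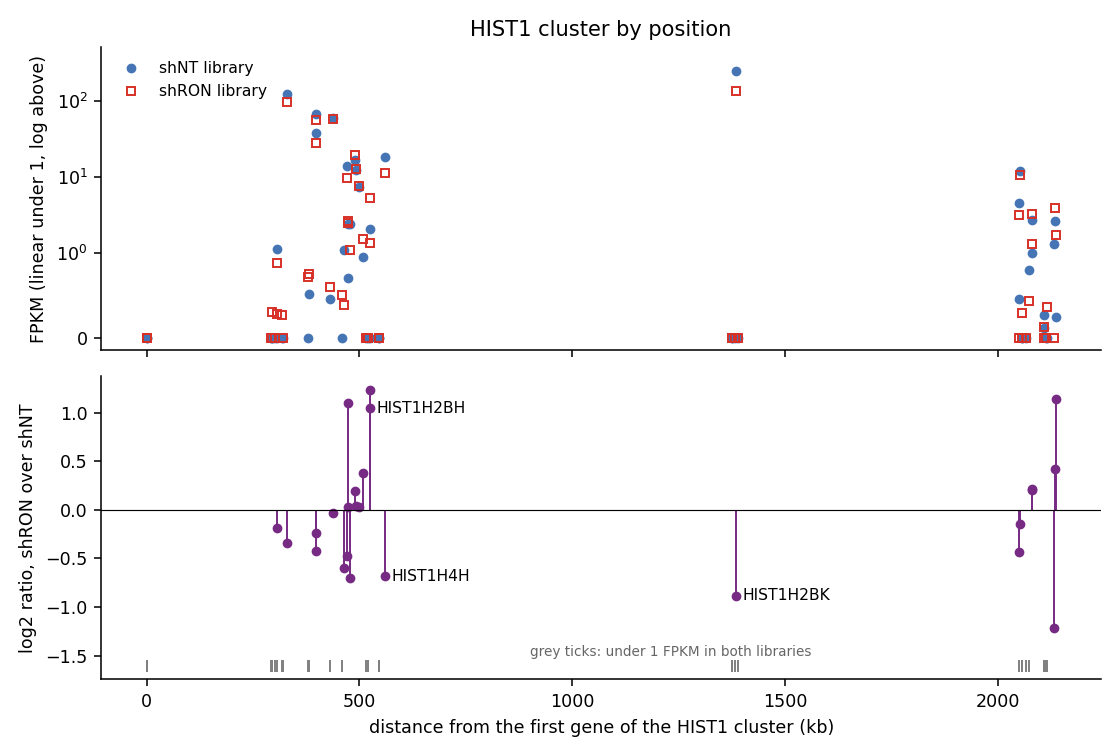
FPKM in both libraries (upper panel, linear under 1 and log above) and log2 ratio of the measured genes (lower panel) against the distance in kb from the first gene of the HIST1 cluster. HIST1H4H and HIST1H2BH, 0.68 below and 1.04 above 0, lie near each other, and HIST1H2BK stands apart from the larger gene groups.

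Many H2A and H2B genes are known to lie head to head, as pairs with a shared promoter between them. Among H2A and H2B genes consecutive by start, 12 pairs lay less than 500 bases apart. Of these, 7 had both genes measured, and 5 of the 7 had log2 ratios of the same sign. HIST1H2BK and its neighbour HIST1H2AH (listed at 0 in both libraries) are not among the 12, because HIST1H4I comes between them in that order. HIST1H2AD (1.10, beside HIST1H2BF at 0.03) and HIST1H2BO (1.14, beside HIST1H2AM at 0.42) reached 1 FPKM in shRON only. The filter thus favoured the shared sign in these pairs. Among all measured genes 5749 were below 0 and 6734 above, so unrelated genes also often share a sign. HIST1H2BC and HIST1H2AC, 240 bases apart, were at -0.42 and -0.24, and HIST1H2BG and HIST1H2AE, 275 bases apart, at 0.20 and 0.04. HIST2H2BE (-0.25) and its partner HIST2H2AC (0.22) differed in sign, with HIST2H2AC at only 1.17 and 1.53 FPKM. So did HIST3H2A (0.02) and HIST3H2BB (-0.16). Levels within a pair could be far apart: HIST3H2A was at 24.2 FPKM in shNT and HIST3H2BB at 6.23.

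Promoters are printed for HIST1H2BK, the gene with the largest difference in FPKM, and HIST1H2AC, whose window overlaps that of its partner HIST1H2BC. They come from RefSeq (GRCh38.p14, 250 bases before to 50 after the start). Capitals mark matches, on either strand, to the octamer ATTTGCAT known from H2B promoters, to TATAAA and to CCAAT, none of which contains another:
HIST1H2BK (chr6:27146806-27147105, minus strand): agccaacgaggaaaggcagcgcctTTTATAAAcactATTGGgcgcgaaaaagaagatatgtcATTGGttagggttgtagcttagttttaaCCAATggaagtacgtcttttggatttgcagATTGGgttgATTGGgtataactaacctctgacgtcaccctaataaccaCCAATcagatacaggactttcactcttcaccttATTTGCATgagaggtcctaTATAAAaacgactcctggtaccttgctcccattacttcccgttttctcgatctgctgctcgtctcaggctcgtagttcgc
HIST1H2AC (chr6:26123922-26124221, plus strand): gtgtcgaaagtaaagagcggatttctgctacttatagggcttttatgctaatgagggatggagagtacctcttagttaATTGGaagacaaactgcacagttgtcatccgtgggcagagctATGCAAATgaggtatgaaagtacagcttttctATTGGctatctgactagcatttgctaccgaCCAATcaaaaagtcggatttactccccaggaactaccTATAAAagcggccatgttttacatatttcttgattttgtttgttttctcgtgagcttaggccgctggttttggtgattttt

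The table held 69 such windows for 65 of the cluster genes and 16 for 11 of the variant genes. The octamer was present in 15 of 20 windows of H2B genes and 11 of 16 of H2A genes, beside 1 of 14 for H3, 0 for H1 and H4, and 1.77% of all 35116 windows. Windows of head-to-head pairs overlap, so H2A and H2B matches are partly the same letters. TATAAA was in 66.7% of cluster windows and 11.5% of all, and CCAAT in 85.5% and 34.6%. HIST1H2BK and HIST1H2AC hold all 3 motifs, and HIST1H2AC did not differ by 1.5-fold. The window of HIST1H2AE, which did not differ by 1.5-fold either, also matches all 3. Its only TATAAA match lies on the opposite strand and is the same stretch as the TATAAA of its partner HIST1H2BG.

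Near-identical copies limit what can be read from the zeros. HIST2H3A and HIST2H3C have the same listed sequence, as do HIST2H4A and HIST2H4B, and all 4 were listed at 0 in both libraries. Of 8 cluster genes that shared over 50% of their words of 50 bases with another member, 5 were at 0 in both libraries and 1, HIST1H2AI (4.56 and 3.13 FPKM), was measured. Among the 62 genes with less sharing, 18 were at 0 in both. HIST2H2AA3 (listed at 0 in both) and HIST2H2BC were not compared because no strand was found for them. Sharing of HIST2H2AA4, which is among the 62, with HIST2H2AA3 was therefore not counted. Words of spliced transcripts came from GENCODE exons, which need not match the listed transcript: HIST1H3D, listed at 864 bases, gave only 454 words. HIST1H2AD, with 453 bases of its span shared with HIST1H3D, is also among the 62, so its sharing may be undercounted. The sources used here do not say how fragments matching several genes were counted, and its part in these zeros was not tested.

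Among the variants, H3F3A was the most abundant gene in both libraries. H3F3A and H3F3B encode the same H3.3 protein, which replaces H3 outside replication. H3F3A stood at 379 FPKM in shNT against 320 in shRON (log2 ratio -0.24, ratio of FPKM 0.844, approximate interval 0.813 to 0.877). H3F3B stood at 179 and 197 FPKM (0.14, ratio 1.11, interval 1.07 to 1.14). The intervals lie on opposite sides of 1, and both differences were under 1.5-fold. Measured genes within 5 Mb had medians of -0.34 around H3F3A and -0.24 around H3F3B. Relative to them both genes were above 0, at 0.10 and 0.39, so the direction of H3F3A turns with this reference. Together the variant H3 genes summed to 558 and 518 FPKM, above the cluster H3 genes at 36.7 and 31.2.

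H2AFJ was the only variant gene past 1.5-fold. It encodes H2A.J, a mammalian H2A variant known to accumulate in senescent cells, and lies on the plus strand at chr12:14927270-14930936 (hg19). It was at 26.5 FPKM in shNT against 43.2 in shRON, a log2 ratio of 0.68, with a ratio of FPKM of 1.63 (approximate interval 1.52 to 1.74). Of all measured genes, 7.54% had a higher log2 ratio. Both its listed transcripts were higher, the 3667-base coding one at 21.2 and 34.1 FPKM and the 3353-base noncoding one at 5.29 and 9.10. The 34 other measured genes within 5 Mb had a median of 0.22, and relative to it H2AFJ was at 0.46.

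The other H2A variants differed by less than 1.5-fold. H2AFZ and H2AFV, which both encode H2A.Z, were at 189 and 184 FPKM (-0.04) and at 69.5 and 65.2 (-0.09). H2AFX encodes H2A.X, which is phosphorylated at DNA breaks, and was at 79.2 FPKM in shNT against 61.8 in shRON (-0.35, ratio 0.780, interval 0.727 to 0.836). The macroH2A genes went opposite ways: H2AFY was at 132 and 99.8 FPKM (-0.40, the lowest of the class) and H2AFY2 at 8.61 and 11.2 (0.35, the second highest). Of the main transcripts of H2AFY, those of 1921 bases (73.4 and 55.1 FPKM) and 1924 bases (42.0 and 29.4) were lower and that of 1915 bases (15.7 and 15.3) was not, so its share was 11.9% and 15.3%. Genes within 5 Mb of H2AFY had a median of -0.35, which leaves it at -0.05 relative to them.

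Of the variant linker genes, H1F0 was at 139 FPKM in shNT against 147 in shRON (0.07), and H1FX at 115 and 91.4 (-0.33). H1F0 encodes H1.0, a linker histone known to be abundant in cells that have stopped dividing, though not only in them. H1FX lies among genes that were also lower, with a regional median of -0.37. With HIST1H1C they were the linker genes above 5 FPKM, and H1F0 was the highest of the 3 in both libraries.

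The machinery around histone supply was given by lists of genes with known roles. Of 18 genes of histone mRNA transcription and processing, 3 were lower and 0 higher by 1.5-fold (median 0.08), beside 8.84% lower and 9.94% higher of all measured genes. These were CDK2 (29.3 to 16.04 FPKM, -0.83) and CCNE2 (14.4 to 8.76, -0.66), the kinase and a cyclin E that switch on histone transcription at S phase entry, and ERI1 (4.29 to 2.37, -0.65), a nuclease that trims histone mRNA ends. SLBP, the stem-loop binding protein, was at 35.9 and 32.3 FPKM (-0.15), and NPAT, the activator of histone transcription, at 4.45 and 5.48 (0.25). SLBP and NPAT are named for their roles, after their values were seen.

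Of 25 genes of histone chaperones and exchange, 0 were lower and 1 was higher, HIRA, which deposits H3.3 (6.76 to 13.7 FPKM, 0.92), with a median of 0.05. The most abundant of these genes, the chaperones NPM1 (703 to 482 FPKM, -0.54) and NAP1L1 (113 to 77.0, -0.54), lay just inside 1.5-fold on the lower side, and the summed FPKM of the list had a ratio of 0.81. They are named after their values were seen. Of 26 genes of S phase and DNA replication, 10 were lower and 0 higher by 1.5-fold, beside the same 8.84% and 9.94%, with a median of -0.52 and GINS2, CDC6 and MCM2 the lowest at -1.24, -1.17 and -1.103. The cluster histone genes had a median of -0.03, or -0.24 at 5 FPKM or more. Replication-dependent histone mRNAs typically belong to the same phase, but which form of RNA was measured here is not known. The S phase list was chosen with earlier results of these data known, and the difference between the lists was not tested.

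**Figure D5:**
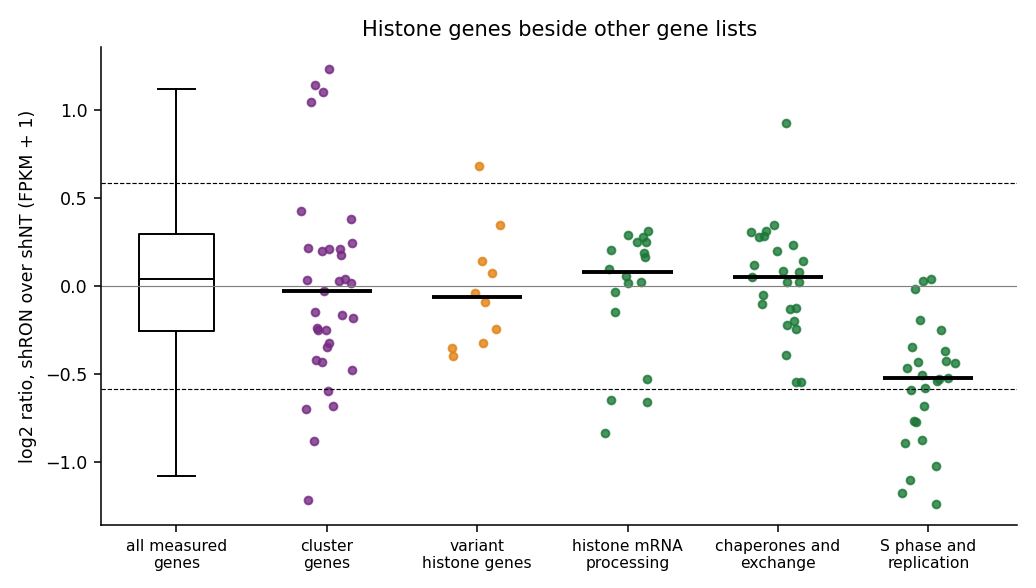
Log2 ratio of FPKM + 1 (shRON over shNT) of the measured genes of each list, 1 point per gene with a black line at the median, beside a box plot of all measured genes (median and quartiles, whiskers to 1.5 interquartile ranges). The S phase genes centre on -0.52, while both histone classes centre near 0.

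Over all transcripts the deposited coverage amounted to 2.90 gigabases for shNT and 2.77 for shRON. The labelled cell type went with its markers: ESR1, PGR, GATA3, FOXA1, KRT8, KRT18, KRT19 and EPCAM were between 23.7 and 3839 FPKM. Of 4 immune markers all were listed at 0 in both libraries, and the 3 endothelial markers stayed at or under 0.0141 FPKM. The 4 fibroblast markers summed to 0.190 FPKM in shNT against 1.59 in shRON. Most of the latter was COL3A1 (0.0103 FPKM in shNT, 1.53 in shRON). COL1A2 was at 0.0253 and 0.0258 FPKM, and DCN and LUM were lower in shRON. Fewer cells in S phase and less mRNA per cell cannot be told apart in such bulk libraries.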

How the data were processed

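RNA of 2 T47D libraries was analysed from the authors' deposited transcript tables, 1 per library, which list 37839 RefSeq transcripts. They have the columns of Cufflinks, per the file headers. The deposited FPKM were taken as they stand, scaled per transcript length and library depth, and the deposited coverage as mean read depth per transcript base. The build is hg19 and DESeq is named without a role, per the submitters' processing notes. The sources used here do not name the aligner, the Cufflinks version, the strand setting or the counting of multiply matching fragments. The control library is called wild type in its file and a non-targeting hairpin in its label, which was used.

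Tables were joined on transcript accession, and FPKM were summed per gene (Python 3.11.15, pandas 2.3.3, scipy 1.17.1). All 95 member transcripts had status OK in both libraries. Genes at 1 FPKM or more in at least 1 library, small RNAs left out, were measured. The log2 ratio used a pseudocount of 1, and 1.5-fold on it was the size rule. Every member with a mean of 5 FPKM or more was named with its values, of the others the extremes and those chosen after their values were seen. Members and gene lists were chosen with earlier results of these data known. The calculation was tested on simulated data.

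Fragments were estimated as coverage times length over the bases of 1 read pair. Those were 244 in shNT and 241 in shRON, the medians of 294 and 289 single-transcript genes of at least 2000 bases whose product lay between 150 and 325. Intervals are 95% Clopper-Pearson intervals on these estimates. They are approximate, cover counting error only and say nothing of the spread between cultures.

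File coordinates were converted to count from 1. Strands came from GENCODE lifted to GRCh37, and for 4 genes on chromosome 6 from the RefSeq promoter table, which gave the same strand for 47 of 47 other transcripts there. For 2 members no strand was found, and their ends and shared words were not searched. Current symbols of 85 members matched in RefSeq.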

Additional observations from a re-analysis of the deposited data

How the results depend on the processing

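With 1 library per group no replicate could be left out, and no p-value or spread between cultures exists for any difference. No paired analysis was possible because each group has 1 library and the labels carry no replicate numbers. No member reversed its direction past 1.5-fold under the alternatives that gave it a value. HIST1H2BK stayed between -1.20 and -0.75 over 13 alternatives, HIST1H4H between -1.004 and -0.54 and H2AFJ between 0.46 and 0.71 over 14 each. With a pseudocount of 5, 2 of the 10 members past 1.5-fold remained so, and the S phase median was -0.40; the cluster class then had 1 gene lower and 0 higher. With a mean of both libraries at 1 FPKM or more, 3 cluster genes were lower and 2 higher, and at 5 FPKM or more 2 were lower and 0 higher, with a median of -0.24; these filters test fewer genes. The cluster median was -0.15 with only the most abundant transcript of each gene, and the cause was not tested. With regional medians subtracted the cluster median was -0.20 with 9 genes lower, and the variant median was 0.072 with 0 genes higher. The variant median was 0.041 with the trend on level removed. The ratio of summed FPKM of the cluster class was 0.879 without HIST1H2BK, an alternative added after seeing the data, as was leaving out genes with shared words. Rare cluster genes are limited by depth: 7 of the 33 measured had under 5 estimated fragments in at least 1 library.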
